A study of Mus musculus with 18 samples.

Results

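Mbp, Pmp22, Prx, Mag, S100b, Sox10 and Cdh19 are 7 genes of the Schwann cell, the cell that wraps the axons of peripheral nerve, and of the myelin it makes. They were followed in mouse gastrocnemius, the large calf muscle, by matching their symbols to the Ensembl identifiers of the deposited count table. All 7 were found among 54532 genes, and all 7 passed the low-count filter that left 17833 genes for testing. The muscles came from female C57BL/6 mice, and polyadenylated RNA was sequenced as stranded libraries. Mice were either flox/flox, with loxP sites at Zfp697, or Zfp697 mKO, in which the gene is deleted in skeletal muscle; the Cre driver is not named in the labels. Within each genotype, mice stayed in ordinary cages as controls, had their hindlimbs unloaded for 10 days, or were reloaded for 3 days. Each of the 6 groups held 3 libraries, and the labels do not say that these came from separate animals, so p-values measure the spread between these libraries, which may be technical.

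A nerve to a muscle carries its Schwann cells into the tissue, so a piece of whole muscle holds some myelin RNA beside a large excess of muscle fibre RNA. Myelinating Schwann cells build a compacted sheath from proteins such as the membrane protein Pmp22 and the cytoplasmic protein Mbp, under the control of the transcription factors Sox10 and Egr2. Schwann cells that hold small axons without myelin, and those at the nerve ending, share Sox10 and S100b but make little of the sheath proteins. In whole muscle, fewer Schwann cells and less of an RNA in each Schwann cell cannot be told apart.

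On GRCm38, Mbp lies at chr18:82475146-82585637 and Pmp22 at chr11:63128982-63159547, both on the plus strand. S100b lies at chr10:76253853-76261159 and Prx at chr7:27499324-27520214, also on the plus strand. Sox10, at chr15:79154908-79165240, Mag, at chr7:30899176-30914873, and Cdh19, at chr1:110888326-110977584, lie on the minus strand. The counts cover all annotated exons of a gene. The exons of Prx overlap those of the antisense gene Gm15541 over 300 bases, 5.38% of its exonic length, and the header of the count table shows no strand option. No exon of the other 6 overlaps another gene.

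Total counts were 45069595 to 51592566 per library, and the TMM factors that correct for composition were 0.952 to 1.09. Zfp697 was counted at 45 to 137 reads in the 9 flox libraries and 48 to 113 in the 9 mKO libraries. That count covers the whole gene, and which part the knockout removes is not given in the labels, so it does not check them. Levels are given as CPM, read counts relative to the size of the library after the TMM correction, and levels of different genes are compared only as CPM per kilobase of exon. The muscle fibre genes Acta1, Ckm, Myh4, Ttn and Des summed to 88073 to 125232 CPM, so each library was muscle by its markers. The oligodendrocyte genes Mog, Mobp, Olig2, Opalin and Ermn, which mark the myelinating cell of the brain and spinal cord, summed to at most 0.148 CPM, and Olig2 and Opalin had no read in any library. The melanocyte list, which shares Sox10 with Schwann cells, summed to 0.382 to 1.33 CPM, with Tyr at 0 in all 18 libraries.

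The compact myelin genes were the most abundant of the 7. Per kilobase, Pmp22 stood highest at 40.1 CPM and Mbp followed at 8.35. The length used is that of all annotated exons, 2354 bases for Pmp22 and 8403 for Mbp. A gene whose transcripts use only part of its exons is understated by this measure, and transcripts were not counted separately. Prx, whose product periaxin links the outer Schwann cell membrane to the basal lamina, stood at 4.42, S100b at 2.20, Cdh19 at 1.07, Sox10 at 1.03 and Mag at 0.435 CPM per kilobase. S100b encodes a calcium-binding protein of Schwann cells that adipocytes also make, Cdh19 a cadherin of the Schwann cell lineage, and Mag the adhesion protein on the Schwann cell membrane that faces the axon. Behind these levels were 1911 to 4584 reads per library for Mbp, 2869 to 5936 for Pmp22, 628 to 1673 for Prx, 140 to 323 for Cdh19, 84 to 266 for S100b, 87 to 243 for Sox10 and 53 to 138 for Mag. Cdh19 and Sox10 were too close in mean level per kilobase to be ordered against a spread within groups of about 0.26 and 0.29 on the log2 scale.

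Promoter sequence, the 250 bases before the start of transcription in RefSeq (GRCm38.p6), was held for 4 of the 7 genes. The first 2 shown, Prx and Pmp22, belong to genes whose levels followed the other members most closely from library to library; the last 2, S100b and Mag, followed them least closely. Capitals mark a match to the core ACAAAG bound by SOX factors, on either strand.
Prx, chr7:27499074-27499323, plus strand: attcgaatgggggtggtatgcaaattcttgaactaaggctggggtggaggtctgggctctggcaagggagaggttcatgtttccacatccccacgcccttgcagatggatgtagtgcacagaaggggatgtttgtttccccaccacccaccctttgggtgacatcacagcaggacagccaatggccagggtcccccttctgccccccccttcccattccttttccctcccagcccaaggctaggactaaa
Pmp22, chr11:63128732-63128981, plus strand: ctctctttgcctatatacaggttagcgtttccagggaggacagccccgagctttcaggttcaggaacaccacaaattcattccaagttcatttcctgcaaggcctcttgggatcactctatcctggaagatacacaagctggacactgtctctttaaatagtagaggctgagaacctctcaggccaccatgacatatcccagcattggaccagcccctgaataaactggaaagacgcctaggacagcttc
S100b, chr10:76253586-76253835, plus strand: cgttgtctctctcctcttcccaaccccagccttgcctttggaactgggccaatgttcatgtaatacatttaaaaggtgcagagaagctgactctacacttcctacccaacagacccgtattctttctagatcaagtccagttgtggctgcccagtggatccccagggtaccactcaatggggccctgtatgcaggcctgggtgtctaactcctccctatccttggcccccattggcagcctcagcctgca
Mag, chr7:30914864-30915113, minus strand: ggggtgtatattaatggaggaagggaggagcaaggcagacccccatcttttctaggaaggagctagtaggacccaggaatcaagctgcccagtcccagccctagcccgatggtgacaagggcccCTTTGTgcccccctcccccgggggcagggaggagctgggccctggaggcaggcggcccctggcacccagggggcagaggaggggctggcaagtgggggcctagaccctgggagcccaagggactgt
Of these 4 windows only that of Mag held the SOX core, read as CTTTGT, 126 to 121 bases before the start. The core was present in 16.5% of 32851 promoter windows of the same length. The core GTGGGCG bound by EGR factors was in none of the 4 and in 7.02% of the windows. RefSeq lists 4 starts for Pmp22 and 3 for Mag, and 1 window is shown for each.

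Mbp varied widely inside the groups. In the flox libraries 1, 2 and 3 it stood at 82.1, 41.8 and 54.7 CPM in control muscle, at 94.4, 92.8 and 85.8 in unloading and at 57.1, 43.6 and 82.2 in reloading. In the mKO libraries it stood at 62.5, 72.6 and 64.5 CPM in control muscle, at 42.2, 85.1 and 71.2 in unloading and at 68.2, 84.7 and 77.1 in reloading. The 3 flox unloading values were the highest of the 18, closely followed by mKO unloading 2 and mKO reloading 2. The lowest values came from 3 different groups: flox control 2, mKO unloading 1 and flox reloading 2.

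Pmp22 was lowest in the same 3 libraries as Mbp and highest in flox unloading 1 and 3. In flox muscle it stood at 94.5, 67.5 and 83.0 CPM in control, 121, 109 and 116 in unloading and 83.5, 75.4 and 112 in reloading. In mKO muscle it stood at 83.6, 108 and 94.9 CPM in control, 62.7, 107 and 81.5 in unloading and 95.2, 112 and 90.9 in reloading. The flox unloading libraries lay above those of both control groups and of mKO unloading, and overlapped those of both reloading groups.

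Prx was lowest in mKO unloading 1 and flox reloading 2. In flox muscle it stood at 27.2, 19.1 and 21.5 CPM in control, 31.8, 32.35 and 34.2 in unloading and 18.4, 16.2 and 27.9 in reloading. In mKO muscle it stood at 21.4, 26.8 and 23.3 CPM in control, 13.7, 27.5 and 26.8 in unloading and 24.04, 28.0 and 24.03 in reloading. The 3 flox unloading values were above all 15 others. Mag, with few reads, ranged from 1.16 CPM in mKO unloading 1 to 2.84 in flox unloading 1. Its group means were 1.55 ± 0.17 CPM (SD, n = 3) in flox control, 2.30 ± 0.54 in flox unloading and 1.71 ± 0.58 in flox reloading, and 1.62 ± 0.29, 1.503 ± 0.43 and 1.93 ± 0.28 in the same conditions in mKO muscle.

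Sox10, the transcription factor that Schwann cells keep from the neural crest onward, differed from the sheath genes in its spread at reloading. In flox muscle it stood at 3.47, 1.90 and 2.99 CPM in control, 5.002, 3.68 and 4.58 in unloading and 2.45, 2.52 and 2.701 in reloading. In mKO muscle it stood at 2.73, 3.399 and 3.01 CPM in control, 2.18, 4.07 and 3.63 in unloading and 2.697, 2.96 and 2.72 in reloading. The 6 reloading libraries lay between 2.45 and 2.96 CPM, while Mbp in those libraries ran from 43.6 to 84.7 CPM. Of the 6 unloading libraries, mKO unloading 1 alone was below that range and the other 5 were above it.

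Cdh19 was lowest in reloaded flox muscle. In flox muscle it stood at 5.03, 4.13 and 5.24 CPM in control, 6.65, 4.84 and 5.72 in unloading and 3.12, 2.59 and 4.83 in reloading. In mKO muscle it stood at 4.38, 5.49 and 5.18 CPM in control, 3.58, 4.39 and 5.001 in unloading and 4.50, 4.17 and 3.69 in reloading. The flox reloading libraries lay below those of flox unloading, by a margin of 4.83 against 4.84 CPM between the nearest pair. S100b had the smallest share of its variation between groups. It ran from 1.83 CPM in mKO unloading 1 to 5.10 in flox reloading 3. Its group means ran from 2.55 ± 0.75 CPM (SD, n = 3) in mKO unloading to 3.66 ± 0.35 in mKO reloading, and the share on the log2 scale was 30.7%, against 38.3% for Mbp and 55.1% for Cdh19.

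**Figure D1:**
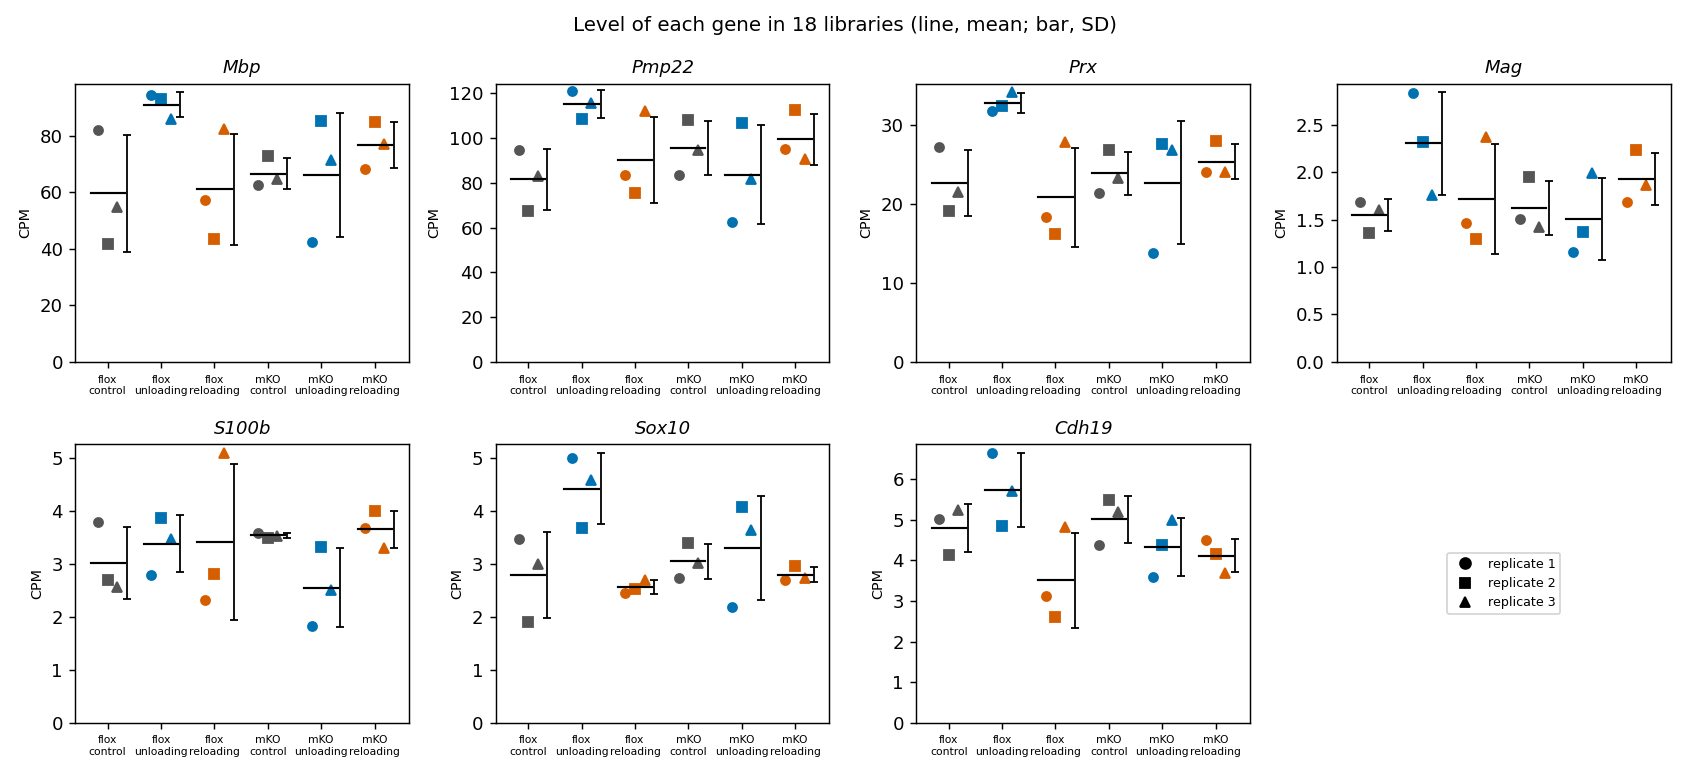
Level of the 7 genes in each library, in CPM on axes that start at 0, by genotype and loading group; the marker shape gives the replicate, the line the group mean and the bar the SD (n = 3). The same libraries are low for the sheath genes, and the 6 reloading values of Sox10 lie between 2.45 and 2.96 CPM.

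The 7 genes moved together from library to library. Their summed level ran from 127 CPM in mKO unloading 1 to 264 CPM in flox unloading 1, a 2.08-fold range. Within groups it ran from 138 to 218 CPM in flox control, 180 to 222 in mKO control, 249 to 264 in flox unloading, 127 to 233 in mKO unloading, 144 to 237 in flox reloading and 200 to 239 in mKO reloading. The flox unloading group was therefore both the highest and the most even, and the other unloading group held the lowest library. The summed level of 17 other genes of peripheral myelin ran from 61.3 to 119.8 CPM, a 1.95-fold range, and its lowest and highest libraries were the same 2.

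An index over the members, the mean of their log2 CPM after each gene was centred on its mean over the 18 libraries, put the groups at -0.13 ± 0.28 (SD, n = 3) for flox control, 0.03 ± 0.14 for mKO control, 0.36 ± 0.07 for flox unloading, -0.15 ± 0.40 for mKO unloading, -0.17 ± 0.38 for flox reloading and 0.06 ± 0.12 for mKO reloading. Of the variation in this index, 41.8% lay between the 6 groups, so more than that lay among libraries of 1 group. The lowest libraries were mKO unloading 1 at -0.60, flox reloading 2 at -0.45, flox control 2 at -0.41 and flox reloading 1 at -0.33. In flox reloading, replicate 3 was the highest of the group for 7 of the 7 genes. In mKO unloading, replicate 1 was the lowest for 7 of the 7, and in flox control, replicate 2 was the lowest for 6 of the 7.

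**Figure D2:**
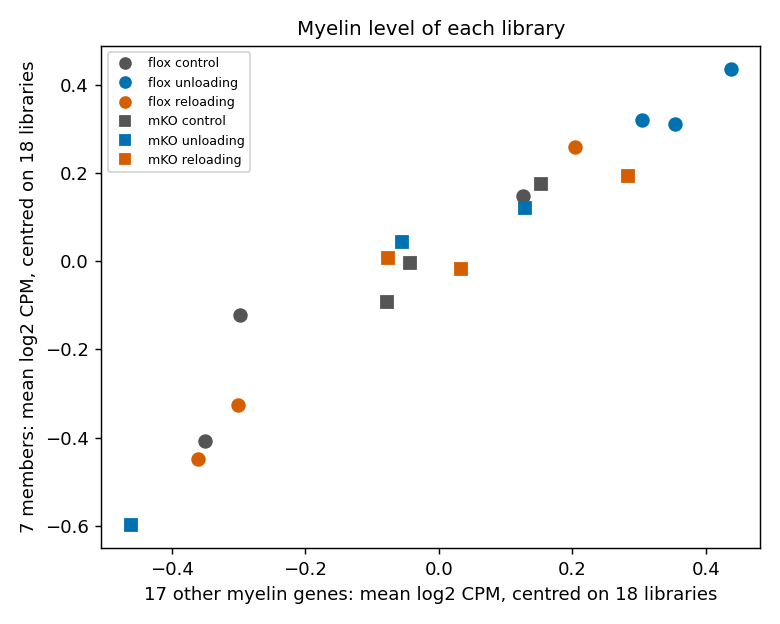
Mean log2 CPM of the 7 genes (vertical axis) against that of 17 other genes of peripheral myelin (horizontal axis), each gene centred on its mean over 18 libraries; 1 point is 1 library, with circles for flox, squares for mKO and colours for loading. The points lie along a diagonal from mKO unloading 1, at -0.60 on the vertical axis, to flox unloading 1, at 0.44.

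The spread within groups was above the median of all genes of 1 CPM or more for each of the 7, a comparison not matched on abundance. The within-group SD on the log2 scale was 0.36 for Mbp, 0.25 for Pmp22, 0.32 for Prx, 0.31 for Mag, 0.34 for S100b, 0.29 for Sox10 and 0.26 for Cdh19, against a median of 0.15 over the 13126 genes that averaged 1 CPM or more. Of those genes, 92.1% had a smaller SD than Mbp and 85.3% a smaller SD than Sox10. Within mKO unloading alone, Mbp differed by 2.01-fold and Prx by 2.01-fold between libraries, and S100b differed by 2.19-fold within flox reloading. The lowest of these counts, for Mag, was 53 reads.

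After the group means were taken out, each gene's log2 CPM was compared over the 18 libraries with the mean of the other 6. The Pearson correlation was 0.95 for Prx, 0.93 for Mbp, 0.93 for Pmp22, 0.77 for Cdh19, 0.75 for Sox10, 0.70 for S100b and 0.69 for Mag. These are descriptions, since the genes share each library's depth and composition. Of single pairs, Mbp with Prx reached 0.93 and Mag with S100b was lowest at 0.45. The 3 most abundant members, whose products form or anchor the sheath, thus stood closest to one another, and the 4 with few reads stood further away.

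Among all 13126 genes, those whose pattern was most like the mean of the 7 included Mal at 0.98, Kif1a at 0.92, Fa2h at 0.92, Sorcs1 at 0.91, Drp2 at 0.90, Ugt8a at 0.89, Cldn19 at 0.87, Gjc3 at 0.86 and Plxnb3 at 0.85. Mal is a protein of myelin membranes, Fa2h and Ugt8a make myelin lipids, Drp2 binds periaxin, and Cldn19 and Gjc3 form junctions within the Schwann cell. The 9 genes of this abundance tied to Schwann cells without myelin or to their repair state ranged from -0.38 for Jun to 0.47 for Erbb3, with Scn7a at 0.31 and Ngfr at -0.01. Egr2, which is also induced in other cell types, stood at 0.05.

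Markers of other cells followed the members less closely than the most alike genes named above. They did not lie below every gene of the myelin list, where Dusp15 stood at 0.63 and Dhh at 0.57. The adipocyte genes ranged from 0.09 for Fabp4 to 0.63 for Cfd, the fibro-adipogenic progenitor genes from -0.13 for Dcn to 0.21 for Col1a1, and the macrophage genes from -0.38 for C1qa to -0.05 for Cd68. Of the muscle fibre genes, Acta1 stood at 0.40 and Des at -0.53. The adipocyte sum ran from 246 to 563 CPM over all libraries, and the part of fat in the S100b level was not tested.

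**Figure D3:**
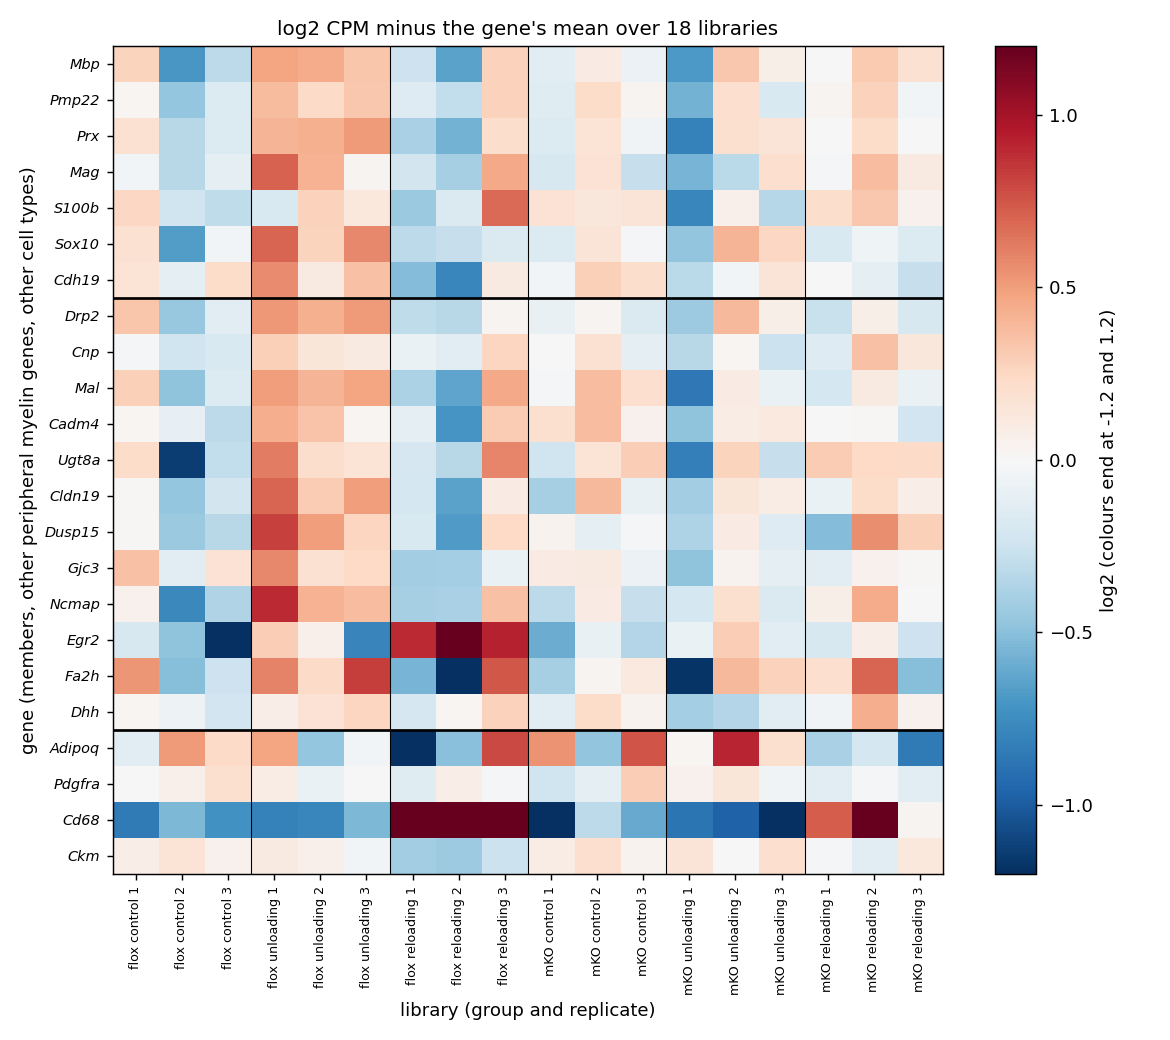
Log2 CPM of each gene (rows) in each library (columns) after subtraction of the gene's mean over 18 libraries, red above and blue below, for the 7 members, 12 other peripheral myelin genes of at least 1 CPM and 1 gene each of adipocytes (Adipoq), fibro-adipogenic progenitors (Pdgfra), macrophages (Cd68) and muscle fibres (Ckm). The columns flox control 2, mKO unloading 1 and flox reloading 2 are blue down most of the myelin rows, and Egr2 is red in the 3 flox reloading libraries.

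Whether loading changed the 7 genes was asked first as the average of the genotypes, with edgeR's quasi-likelihood test adjusted by Benjamini-Hochberg over 17833 genes. Between unloading and control none of the 7 was called, where 19% of all tested genes were. The log2 fold changes were 0.30 ± 0.17 (SE) for Mbp, 0.15 ± 0.12 for Pmp22, 0.23 ± 0.15 for Prx, 0.23 ± 0.18 for Mag, -0.15 ± 0.18 for S100b, 0.39 ± 0.15 for Sox10 and 0.02 ± 0.14 for Cdh19. The smallest adjusted p was 0.0864, for Sox10, and 1 of the 7 had an unadjusted p under 0.05. DESeq2 called none of them. Without mKO unloading 1, the Sox10 adjusted p was 0.022.

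Between reloading and unloading, Sox10 and Cdh19 fell. Sox10 fell by 0.51 ± 0.15 (SE) on the log2 scale, to 0.700 of its unloaded level, with an adjusted p of 0.0127 by edgeR. Cdh19 fell by 0.39 ± 0.14, to 0.764 of its unloaded level, with an adjusted p of 0.034. These 2 of 7 compare with 40.2% of all tested genes called in either direction and 19.1% called lower, so the count of members is not itself a result. DESeq2 also called 2.

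Sox10 passed under each of the 20 alternative settings tried for this contrast, with log2 values from -0.63 to -0.38. Cdh19 did not pass in 10 of the 20: with scaling by total counts, in a fit of only the compared groups, and without any 1 of flox unloading 1 or 3, mKO unloading 2 or 3, flox reloading 1 or 2, or mKO reloading 2 or 3. Its adjusted p by edgeR in those was 0.0512 to 0.0959. With scaling by total counts, the median over all genes moved by 0.063 and the share of called genes that were higher went from 52.6% to 64.4%.

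The sheath genes were not called in that contrast. Mbp differed by -0.18 ± 0.17 (SE) on the log2 scale, Pmp22 by -0.05 ± 0.12, Prx by -0.25 ± 0.15, Mag by -0.03 ± 0.18 and S100b by 0.27 ± 0.18, with adjusted p by edgeR of 0.211 to 0.903. Prx passed without mKO unloading 1 or without flox reloading 3.

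Between reloading and control, none of the 7 was called, against 24.1% of all tested genes. Cdh19 differed by -0.37 ± 0.14 (SE) on the log2 scale with an adjusted p of 0.0647 by edgeR, Sox10 by -0.12 ± 0.16, Prx by -0.02 ± 0.15, Mbp by 0.12 ± 0.17, Pmp22 by 0.10 ± 0.12, S100b by 0.11 ± 0.18 and Mag by 0.20 ± 0.18. One member had an unadjusted p under 0.05, and DESeq2 called 1. Without flox reloading 3, 1 of the 7, Cdh19, was called. With scaling by total counts, the share of calls that were higher over all genes went from 52.5% to 73%.

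**Figure D4:**
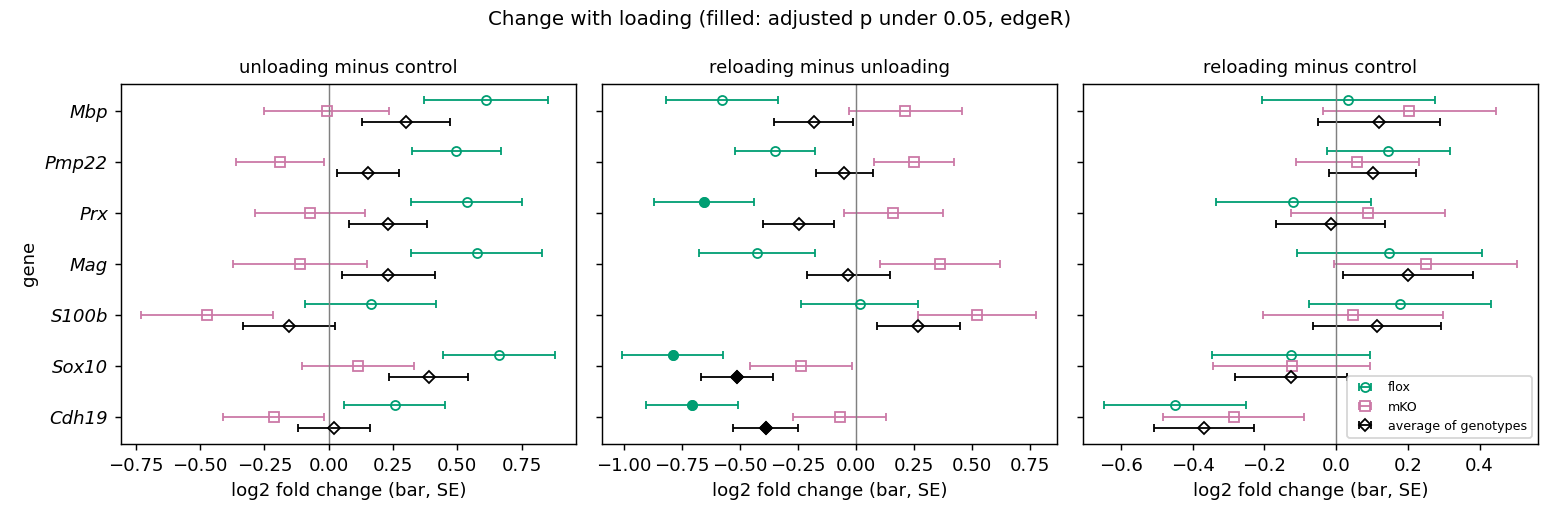
Log2 fold change of each gene (horizontal axis, bars are SE) in the 3 comparisons between loading conditions, for flox, mKO and the average of the genotypes; filled symbols have an adjusted p under 0.05 by edgeR. In reloading minus unloading, the filled symbols are Sox10 and Cdh19 in the average and Sox10, Cdh19 and Prx in flox.

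In flox muscle alone, unloading against control gave positive log2 values for 7 of the 7 genes, and none was called, against 5.74% of all tested genes. The values were 0.61 ± 0.24 (SE) for Mbp, 0.50 ± 0.17 for Pmp22, 0.54 ± 0.21 for Prx, 0.58 ± 0.25 for Mag, 0.16 ± 0.25 for S100b, 0.66 ± 0.22 for Sox10 and 0.26 ± 0.20 for Cdh19. Their smallest adjusted p by edgeR was 0.083, 5 of the 7 had an unadjusted p under 0.05, and DESeq2 called 2. Libraries did not overlap for Mbp, Pmp22, Prx, Mag and Sox10, a pattern seen in 13% of all tested genes in that direction. In mKO muscle 1 of the 7 values was positive, Sox10 at 0.11 ± 0.22 (SE), the others ran from -0.47 ± 0.26 for S100b to -0.01 ± 0.24 for Mbp, and their median was -0.11 beside 0.54 in flox. There 0 of the 7 were called, against 7.75% of all tested genes, 0 had an unadjusted p under 0.05 and DESeq2 called 0; S100b alone had libraries apart, lower in unloading, as 14% of tested genes did.

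Reloading against unloading in flox muscle gave 3 calls, all lower, against 31.9% of all tested genes called in either direction and 14.9% called lower. Sox10 fell by 0.79 ± 0.22 (SE) on the log2 scale (adjusted p by edgeR 0.00959), Cdh19 fell by 0.71 ± 0.20 (0.0106) and Prx fell by 0.66 ± 0.21 (0.0259). Mbp, at -0.58 ± 0.24, had an adjusted p of 0.0784. Its libraries, like those of the 3 called genes, did not overlap between the groups, which 20.9% of tested genes showed in that direction.

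The Sox10 call was kept in every fit that left out 1 of these libraries, while those of Cdh19 and Prx rested on particular libraries. Without flox reloading 2, 1 of the 7 was called, and without flox reloading 3, 6 were. Cdh19 was also lost without flox unloading 1, and Prx without flox unloading 2 or 3 or flox reloading 1 or 2. With scaling by total counts, which moved the median of all genes by 0.11 and the share of calls that were higher from 53.3% to 71.8%, Prx had an adjusted p of 0.0522 by edgeR. In mKO muscle, none of the 7 was called between reloading and unloading, against 18.3% of all tested genes, none had an unadjusted p under 0.05, and DESeq2 called none. There 5 of the 7 values were positive, up to 0.52 ± 0.26 (SE) for S100b, Sox10 stood at -0.24 ± 0.22 and Cdh19 at -0.07 ± 0.20, and the median was 0.21 beside -0.58 in flox, where 1 of the 7 was positive.

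Between reloading and control none was called in flox muscle, against 22.6% of all tested genes, or in mKO muscle, against 2.18%. In flox muscle 1 of the 7 had an unadjusted p under 0.05 and in mKO muscle 0 did, and DESeq2 called 0 in both. These comparisons share their control, unloading and reloading libraries with those above and are not independent of them.

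The genotypes were then compared within each loading condition. In control muscle none of the 7 was called by edgeR, none had an unadjusted p under 0.05, DESeq2 called none, and 0% of all tested genes were called. In unloaded muscle 7 of the 7 had negative values in mKO minus flox, from -0.61 ± 0.26 (SE) for Mag to -0.41 ± 0.26 for S100b. None was called by edgeR or DESeq2, 0% of all tested genes were, and 3 had an unadjusted p under 0.05. Mbp, Pmp22 and Prx had libraries apart between the genotypes, all lower in mKO, as 4.7% of tested genes did. In reloaded muscle the sign was positive for 7 of the 7, none was called by edgeR or DESeq2 against 4.91% of all tested genes, and none had an unadjusted p under 0.05.

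The genotype difference in the change with loading was tested as an interaction. For unloading minus control, none of the 7 was called, 1 had an unadjusted p under 0.05 and 0% of all genes were called. For reloading minus unloading, none was called, 5 had an unadjusted p under 0.05, the smallest adjusted p by edgeR was 0.356, for Prx at 0.82 ± 0.30 (SE), and 0% of all genes were called. For reloading minus control, none was called against 0.522% of all genes, and none had an unadjusted p under 0.05. DESeq2 called none of the 7 in any of the 3. The calls in flox muscle therefore are not shown to differ from the values in mKO muscle.

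To set the other 6 genes beside the Mbp level of each library, the same fit was run with the log2 CPM of Mbp as a covariate, an alternative chosen after the data were seen. In this fit Sox10 in reloading minus unloading, averaged over genotypes, stood at -0.38 ± 0.12 (SE) with an adjusted p of 0.0208 by edgeR, and Cdh19 at -0.31 ± 0.12 with 0.0474. S100b was called higher, at 0.39 ± 0.13 (0.0285), beside 0.27 ± 0.18 and no call without the covariate. Prx stood at -0.09 ± 0.07, Pmp22 at 0.07 ± 0.06 and Mag at 0.07 ± 0.15, and were not called. Between reloading and control Cdh19 was called, at -0.44 ± 0.12 (0.012), beside -0.37 ± 0.14 and no call without the covariate. Mbp itself stood at -0.18 ± 0.17 in reloading minus unloading and at 0.12 ± 0.17 in reloading minus control. The values of genes that follow it therefore shift in part by the choice of covariate, and the calls of S100b and of Cdh19 against control are not themselves a result.

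The genotype values of Prx and Pmp22 given next were smaller in this fit, and none of them was called without the covariate. Mbp itself stood at -0.46 ± 0.24 (SE) in mKO minus flox at unloading and at 0.79 ± 0.34 in the interaction. With group means taken out, it correlated at 0.93 with Prx and 0.91 with Pmp22. Smaller values for Prx and Pmp22 therefore follow from the choice of covariate and are not themselves a result. In mKO minus flox at unloading, Prx stood at -0.17 ± 0.11 (SE) beside -0.53 ± 0.21 without the covariate, and Pmp22 at -0.17 ± 0.10 beside -0.46 ± 0.17. The interaction in reloading minus unloading stood at 0.18 ± 0.16 for Prx beside 0.82 ± 0.30. In flox muscle alone, reloading minus unloading stood at -0.38 ± 0.20 for Sox10, -0.43 ± 0.19 for Cdh19 and -0.18 ± 0.12 for Prx, and none was called in this fit, with adjusted p by edgeR of 0.175, 0.112 and 0.274. Mbp itself stood at -0.58 ± 0.24 there, and with group means taken out it correlated at 0.80 with Sox10 and 0.68 with Cdh19. These lost calls therefore come in part from the choice of covariate and are not themselves a result.

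The ratio to Mbp was also taken in single libraries. The log2 ratio of Sox10 to Mbp ran from -4.55 to -4.17 in the 6 control libraries (median -4.42), from -4.64 to -4.22 in unloading (median -4.26) and from -4.91 to -4.09 in reloading (median -4.72). In mKO muscle the 3 reloading libraries, -4.82 to -4.64, lay below the 3 unloading libraries, -4.37 to -4.25. In flox muscle they overlapped. The share of all genes with such a gap in their ratio to Mbp was not computed, so the gap is not itself a result. Sox10 was not called in mKO reloading minus unloading (-0.24 ± 0.22, SE). The log2 ratio of Cdh19 to Mbp had medians of -3.67 in control, -3.86 in unloading and -4.13 in reloading, and the 6 reloading libraries, -4.37 to -3.91, overlapped the 6 control libraries, -4.02 to -3.32. Mbp itself was not called between the conditions, with adjusted p by edgeR of 0.241 to 0.666 in the 3 averages.

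**Figure D5:**
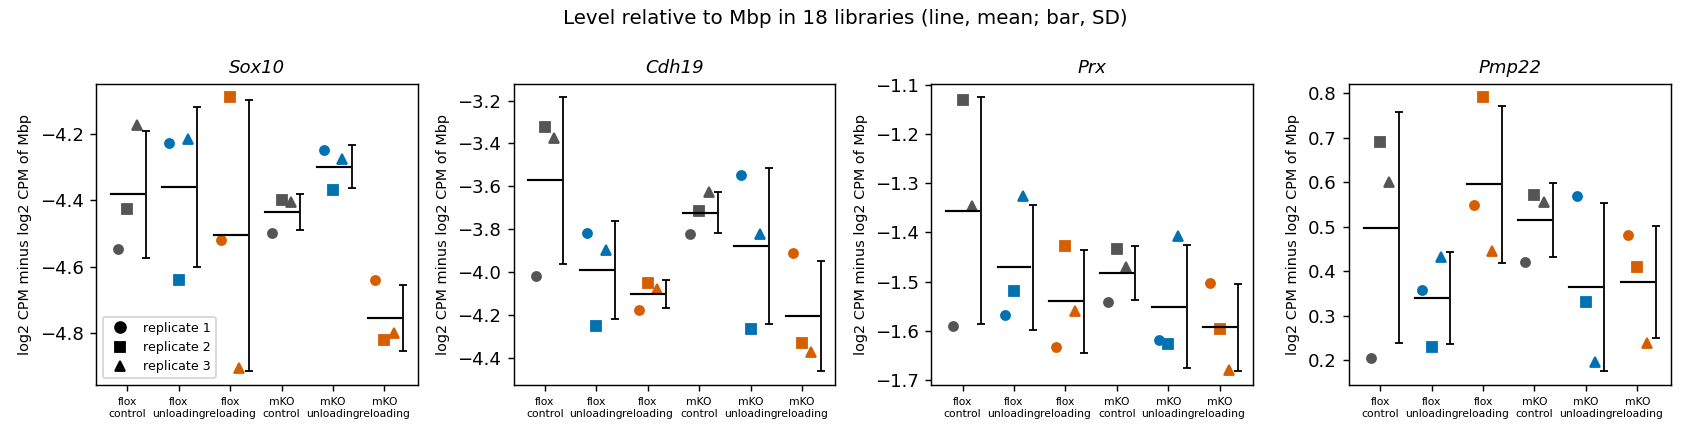
Log2 CPM of Sox10, Cdh19, Prx and Pmp22 minus that of Mbp in each library, by genotype and loading group, with the group mean (line) and SD (bar, n = 3); the marker shape gives the replicate. In mKO muscle the 3 reloading values of Sox10 lie below the 3 unloading values, and in flox muscle they overlap. The share of all genes with such a gap was not computed.

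The wider myelin programme was read from a list of 17 other genes of peripheral myelin, all tested. In flox unloading minus flox control, 17 of the 17 were positive, with a median log2 value of 0.55 beside 0.54 for the 7 members and -0.002 for all genes, and 1 was called higher, Ncmap, which encodes a myelin-associated protein, against 5.74% of all tested genes. In mKO muscle 6 of the 17 were positive, with a median of -0.10, and 0 were called, against 7.75% of all tested genes. In reloading minus unloading averaged over genotypes, the median was -0.20 and 3 were called, against 40.2% of all tested genes. By genotype, 1 of the 17 was positive in flox, with a median of -0.64. There 1 was called higher and 7 lower, against 31.9% of all tested genes called in either direction and 14.9% called lower. In mKO 12 were positive, with a median of 0.17, and 1 was called higher, against 18.3% of all tested genes called. Each of the 7 lower calls in flox was lost with Mbp as covariate. Mbp itself stood at -0.58 ± 0.24 (SE) in that contrast, so smaller values of genes that follow it come in part from the choice of covariate. That loss is therefore not itself a result. All of these calls but that of Drp2 were also lost in at least 1 fit that left out 1 library. In the average of the genotypes, Drp2 fell by 0.42 ± 0.13 (SE) on the log2 scale (adjusted p by edgeR 0.0139) and Egr2 rose by 0.61 ± 0.21 (0.0274). Pllp, which encodes plasmolipin of the myelin membrane, fell there by 0.86 ± 0.28 (adjusted p by edgeR 0.02), at 14 to 43 reads per library. In that average, Drp2 kept its call under each alternative tried. Pllp lost it without mKO unloading 3, and Egr2 without any 1 of flox unloading 3, mKO unloading 1 or 3, flox reloading 2 or mKO reloading 2. The Ncmap call was lost without flox control 2 or 3 or flox unloading 1 or 2, in a fit of only the compared groups, and with Mbp as covariate.

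Egr2 stood apart from the genes it is known to drive in Schwann cells. Its level was 5.22 ± 2.07 CPM (SD, n = 3) in flox reloading and 1.42 to 2.18 CPM on average in the other 5 groups. In reloaded muscle it was lower in mKO than in flox by a log2 value of -1.41 ± 0.30 (SE; adjusted p by edgeR 0.0108), a call lost without flox reloading 2 or mKO reloading 1 or 3, where the adjusted p was 0.052 to 0.0933. Macrophage markers were also highest in flox reloading. There the 6 genes Cd68, Adgre1, Csf1r, C1qa, Mrc1 and Ptprc summed to 199.8 ± 39.2 CPM (SD, n = 3). Their sum was 95.4 ± 17.9 CPM in mKO reloading and 61.5 to 83.3 on average in the other 4 groups. In mKO muscle they did not move with Egr2. From unloading to reloading Egr2 went from 2.18 to 1.96 CPM there, and the macrophage sum from 61.5 to 95.4 CPM. The part of macrophages in the Egr2 level was not tested.

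Genes of Schwann cells without myelin, or of the repair state that Schwann cells enter after nerve injury, made a list of 16, of which 12 were tested; Gfap, Sox2, Olig1 and Shh were too low. In reloading minus unloading averaged over genotypes, 3 rose and 1 fell, against 21.1% of all tested genes called higher and 19.1% lower. Gap43, a growth-associated protein of axons and repair Schwann cells, rose by 1.68 ± 0.35 (SE) on the log2 scale (adjusted p by edgeR 0.000898), at 2 to 39 reads per library. Ncam1, an adhesion molecule that muscle fibres and satellite cells also make, rose by 0.66 ± 0.09 (2.71e-05). The adhesion molecule L1cam rose by 0.33 ± 0.12 (0.034), and the growth factor gene Btc fell by 0.86 ± 0.22 (0.00386). Jun and Erbb3, the former the factor most tied to the repair state and the latter the neuregulin co-receptor, were not called in that average. In flox muscle alone, 3 of the 12 were called higher, Jun among them, and 1 lower, against 31.9% of all tested genes called in either direction. That Jun call was lost in 8 of the 14 alternatives, over which its log2 value ran from 0.26 to 0.79. In the average, L1cam lost its call with no low-count filter and without any 1 of flox unloading 1 or 2, mKO unloading 3, flox reloading 2 or mKO reloading 2.

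In unloading minus control averaged over genotypes, 2 of these 12 were called, against 19% of all tested genes, the neurotrophin receptor Ngfr lower at -1.16 ± 0.39 (SE; adjusted p by edgeR 0.0462) and the trophic factor Gdnf higher at 0.78 ± 0.26 (0.047). Each call was lost in 9 of the 12 fits that left out 1 of these libraries: Ngfr kept it only without flox control 3, mKO control 3 or mKO unloading 2, and Gdnf only without flox control 2, flox unloading 2 or mKO unloading 2. The Gdnf call was also lost with a replicate block, with no low-count filter and in a fit of only the compared groups.

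The 7 genes of the node of Ranvier and its flanks split in reloading minus unloading averaged over genotypes, with 2 called higher and 2 lower, against 40.2% of all tested genes called. Cntnap1 rose by 0.75 ± 0.14 (SE; adjusted p by edgeR 0.000333) and Nrcam by 0.86 ± 0.17 (0.000453), while Ank3, which muscle fibres also make, fell by 0.46 ± 0.07 (3.81e-05) and the channel gene Kcna1 by 0.43 ± 0.14 (0.0199). Kcna1 lost its call without mKO unloading 2 or flox reloading 2. In unloading minus control, Ank3 rose by 0.50 ± 0.07 (9.2e-05) and Kcna1 by 0.48 ± 0.14 (0.0225), the latter not without flox control 2, mKO control 2 or mKO unloading 2, nor with Mbp as covariate.

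Nrcam, an adhesion molecule of the node, was called in flox muscle and not in mKO muscle. Its level went from 0.706 ± 0.036 CPM (SD, n = 3) in flox unloading to 1.87 ± 0.07 in flox reloading, and from 0.752 ± 0.212 to 0.940 ± 0.068 in mKO, at 22 to 103 reads per library. Reloading minus unloading stood at 1.40 ± 0.23 (SE) on the log2 scale in flox (adjusted p by edgeR 0.000174) and at 0.32 ± 0.24 in mKO (0.393), and the interaction for that contrast was not called (-1.08 ± 0.33, 0.24). In reloaded muscle Nrcam was lower in mKO than in flox by a log2 value of -0.99 ± 0.23 (0.0164), a call lost without flox reloading 2 or mKO reloading 1 or 3.

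Axonal RNA was scarce. Of 9 axon and neuron genes 4 were tested and 3 were called in reloading minus unloading averaged over genotypes, against 40.2% of all tested genes, the list summed to 4.45 to 9.95 CPM, and Chat, the enzyme of acetylcholine synthesis in motor neurons, had no read in any library. In that contrast Prph rose by 0.79 ± 0.24 (SE) on the log2 scale (adjusted p by edgeR 0.0128), Stmn2 by 0.63 ± 0.15 (0.00294) and Uchl1 by 0.62 ± 0.17 (0.0059). In unloading minus control, Prph, which encodes the neuronal filament protein peripherin, fell by 0.76 ± 0.24 (0.0331) and the neurofilament gene Nefm rose by 1.87 ± 0.64 (0.0483), at 0 to 12 reads per library. Each was lost in 9 of the 12 fits without 1 of these libraries and with Mbp as covariate, Prph also in a fit of only the compared groups, and Nefm also with a replicate block, with no low-count filter and by DESeq2.

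Of the 5 perineurial genes, which mark the sleeve of cells around each nerve bundle, Moxd1 rose in reloading minus unloading by 0.69 ± 0.13 (SE; adjusted p by edgeR 0.000306) and Slc2a1 fell by 0.23 ± 0.08 (0.0404), against 40.2% of all tested genes, and the latter kept its call, of the fits that left out 1 library, only without mKO unloading 2 or mKO reloading 3. In unloading minus control, Cldn1 rose by 0.46 ± 0.12 (0.0107) and Itgb4 by 0.41 ± 0.12 (0.0232), against 19% of all tested genes, the latter not without flox control 3, mKO control 1, flox unloading 1 or mKO unloading 3, nor with Mbp as covariate. In reloading minus control averaged over genotypes, 8 genes of these nerve lists were called, against 24.1% of all tested genes: Egr2, Cntnap1, Nrcam, Ncam1, Gdnf, Moxd1 and Stmn2 higher and Btc lower. Gdnf lost this call in 8 of the fits that left out 1 library, Stmn2 in 6 and Cntnap1 in 2. Egr2, Nrcam, Ncam1, Moxd1 and Btc kept theirs under each alternative tried.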

How the data were processed

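RNA of 18 gastrocnemius libraries was measured as counts per gene. Per the submitters' processing notes, alignment used STAR 2.7.3a (GRCm38.p6) and counting featureCounts 2.0.3; per the file headers it was featureCounts 1.6.4 with release 94 annotation. The deposited counts are raw, summed over exons, with no strand option in the header. The 7 genes and all gene lists were chosen with earlier results of these data known.

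Counts were scaled by TMM, filtered by edgeR's default and tested with edgeR 4.0.16 (R 4.3.3) on 6 group means, 12 residual degrees of freedom, in 15 contrasts, adjusted over 17833 genes by Benjamini-Hochberg, with calls at 0.05. The average over genotypes weights them equally. The SE is the fold change over the square root of F. Log2 CPM used a prior count of 2. Genes outside the 7 were named by rule: called genes of each list (the 4 with the largest change) and genes among those most alike; the values of Chat, Olig2, Opalin and Tyr, and single genes of lists with no call, were picked after their values were seen. Alternatives were RLE factors, total counts, other filters, a replicate block, the compared groups alone, DESeq2 1.42.0 and leaving out each library, and, chosen after the data were seen, the Mbp level as a covariate for the other 6 genes. Some planned items are not reported here. The test was tried on simulated data. No pair of libraries was a duplicate. The authors' own comparison tables were not used here.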

Additional observations from a re-analysis of the deposited data

Results flagged for a closer look

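Nrcam changed differently in the 2 genotypes between reloading and control. The interaction stood at -1.66 ± 0.33 (SE) on the log2 scale with an adjusted p of 0.0345 by edgeR, from 1.55 ± 0.24 in flox muscle and -0.10 ± 0.23 in mKO muscle. The call was lost in 8 of the 12 fits that left out 1 of these libraries and with Mbp as covariate, with an adjusted p of 0.0528 to 0.126 in those fits. In control muscle Nrcam stood at 0.637 ± 0.195 CPM (SD, n = 3) in flox and 1.009 ± 0.056 in mKO, a difference that was not called. In reloaded muscle it stood at 1.87 ± 0.07 in flox and 0.940 ± 0.068 in mKO. The interaction takes in both differences. Macrophage markers summed to 199.8 CPM in flox reloading and 95.4 in mKO reloading, and to 76.7 and 83.3 in the flox and mKO controls. The part of macrophages in the Nrcam level was not tested.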

How the results depend on the processing

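The number of the 7 genes called moved with the settings as follows. With no low-count filter, 2 were called in unloading minus control averaged over genotypes, 4 in flox, 4 in reloading minus unloading averaged and 5 in flox, 1 in reloading minus control averaged, 3 in mKO minus flox at unloading, 1 at reloading, and 3 in each interaction with unloading; the cause was not tested. With Mbp as covariate, an alternative chosen after the data were seen, 3 of the other 6 were called in reloading minus unloading averaged, 0 in flox, and 1 in reloading minus control both averaged and in flox. Total counts and a fit of only the compared groups each gave 1 in reloading minus unloading averaged, and the compared groups gave 2 in flox unloading minus control. DESeq2 gave 1 in reloading minus control averaged and 2 in flox unloading minus control. Leaving out each library gave 0 to 1 in unloading minus control averaged, 1 to 3 in reloading minus unloading averaged, 0 to 1 in reloading minus control averaged and in flox, and 1 to 6 in flox reloading minus unloading. In the other 10 comparisons it gave 0.

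Small values changed sign. In unloading minus control averaged, Pmp22 stood at -0.0436 and Prx at -0.0338 with Mbp as covariate. Cdh19 there stood at -0.132 with Mbp as covariate and at -0.0388 to 0.081 with libraries left out. In reloading minus unloading averaged, Pmp22 stood at 0.016 with total counts, 0.0665 with Mbp as covariate and -0.141 to 0.0581 with libraries left out, and Mag at 0.0313, 0.06999 and -0.186 to 0.0947. In reloading minus control averaged, libraries left out gave -0.0188 to 0.269 for Mbp, -0.0902 to 0.217 for S100b and -0.149 to 0.0611 for Prx, which total counts put at 0.063. No call reversed. Of 57 calls of other nerve genes, 25 held under every alternative.

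The replicate numbers were not taken to pair the libraries, since not every same-numbered pair correlated over 0.1. Same-numbered libraries of different groups had a mean correlation of 0.07 (range -0.20 to 0.30, 18 of 45 pairs over 0.1) against -0.03 for other numbers (12 of 90 pairs), and 11 of 18 libraries correlated best with their own number, a hint of pairing from the data and not the design. With a replicate block, 2 members were called in reloading minus unloading averaged, 3 in flox and 0 elsewhere. Mag, S100b and Sox10, at 53 to 266 reads per library, carry the most counting error.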
